A study of Homo sapiens with 10 samples.

Results

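The FOS family gene loci were the 4 stretches of the human genome that hold FOS, FOSB, FOSL1 and FOSL2, and they were described by the ChIP-seq peaks whose summits fell in them. The limits, in the hg19 build of the lists, were chr14:75700000-75800000 for FOS, chr19:45950000-46000000 for FOSB, chr11:65640000-65690000 for FOSL1 and chr2:28570000-28690000 for FOSL2. They held 457 of the 879550 peaks in the 10 lists, of which 163 lay at the FOS locus, 85 at FOSB, 66 at FOSL1 and 143 at FOSL2. The cells were MCF10A-ER-Src, a non-tumorigenic human breast epithelial line in which all groups carry a Src oncoprotein fused to the estrogen receptor ligand-binding domain, so that tamoxifen switches Src on. Transformed cells had received 1 µM 4-hydroxy-tamoxifen and were taken at 12 h, and non-transformed cells had received the ethanol (EtOH) vehicle. In the headers of the lists, the ethanol libraries carry a mark of 36 h and the tamoxifen libraries one of 12 h, so hours in culture and treatment cannot be told apart. In each state, chromatin bound by FOS, JUN, JUNB, NFKB1 and STAT3 was precipitated, with 1 library for each protein and state, and therefore no difference below has a replicate check or a test.

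FOS proteins (FOS, FOSB, FOSL1 and FOSL2) pair with JUN proteins (JUN, JUNB) to form AP-1, a dimer that binds short palindromic sites and that is induced by growth factors, stress and oncogenes. The FOS gene is a classic immediate-early gene whose promoter answers to serum and to cAMP signals through separate elements, while FOSL1 and FOSL2 encode the longer-lived FRA-1 and FRA-2 proteins. STAT3 is activated by cytokines such as IL-6 and by Src kinases, and NFKB1 encodes the p50 subunit of NF-κB, a mediator of inflammatory signals. FOS therefore appears here both as a gene and as a precipitated protein, and the text says "locus" for the former and "protein" for the latter.

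The DNA just before the start of each gene is shown because these genes are read as possible targets of the very proteins precipitated. The 250 bases before the start were available for 3 of the 4 members, from RefSeq in build GRCh38.p14, which is not the build of the lists. FOS lies at chr14:75278578-75278827, FOSB at chr19:45467746-45467995 and FOSL2 at chr2:28392608-28392857, each on the plus strand and written 5′ to 3′. Capitals mark TGACGT, the core of the cAMP response element.
FOS: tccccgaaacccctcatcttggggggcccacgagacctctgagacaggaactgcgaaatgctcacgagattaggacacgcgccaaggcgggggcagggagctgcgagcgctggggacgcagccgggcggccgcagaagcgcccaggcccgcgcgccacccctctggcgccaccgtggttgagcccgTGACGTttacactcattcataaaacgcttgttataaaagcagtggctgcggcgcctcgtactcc
FOSB: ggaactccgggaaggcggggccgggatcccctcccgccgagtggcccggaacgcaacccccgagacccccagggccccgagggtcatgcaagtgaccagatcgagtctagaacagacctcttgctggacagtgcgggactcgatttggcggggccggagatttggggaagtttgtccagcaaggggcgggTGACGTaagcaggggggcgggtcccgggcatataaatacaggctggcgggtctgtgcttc
FOSL2: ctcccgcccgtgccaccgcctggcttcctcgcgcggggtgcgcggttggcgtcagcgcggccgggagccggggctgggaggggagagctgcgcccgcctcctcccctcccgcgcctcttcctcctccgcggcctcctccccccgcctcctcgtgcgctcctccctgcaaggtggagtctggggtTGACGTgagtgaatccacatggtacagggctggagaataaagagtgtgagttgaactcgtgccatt
Each of the 3 sequences held TGACGT 1 time on the gene's own strand, at 64 to 59 bases before the start in FOS, 60 to 55 in FOSB and 66 to 61 in FOSL2. That core was searched on both strands after the sequences had been seen, and it occurred in 2494 of 35116 promoters of the same length, or 7.10%. None of the 3 held the AP-1 letters TGANTCA, found in 6.57% of all promoters, or the full palindrome TGACGTCA, found in 1.65%. Nor did any hold TTCNNNGAA, the letters of a STAT site that 6.57% of promoters carry, or GGANTTNCC, those of an NF-κB site that 3.67% carry. These matches are descriptions of letters and no peak was placed on them. In the reference gene order, FOS lies between the protein-coding genes TMED10 and JDP2, FOSB between ERCC1 and RTN2, FOSL1 between CCDC85B and C11orf68, and FOSL2 between BABAM2 and PLB1.

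Peaks were dense at all 4 loci. In each of the 40 pairs of list and locus, the number of peaks per 100 kb was above the mean of that list over the genome, by 1.60 to 12.6 times. The highest multiple was STAT3 of non-transformed cells at the FOS locus, with 20.0 peaks per 100 kb against a mean of 1.59. JUNB of transformed cells at the FOS locus had the lowest, with 6.00 peaks per 100 kb against 3.74. The windows were centred on genes and the list means include gene-poor DNA, so the multiples describe density and compare nothing with other genes. The plot of peaks per 100 kb shows the profile of each protein over the loci.

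**Figure D1:**
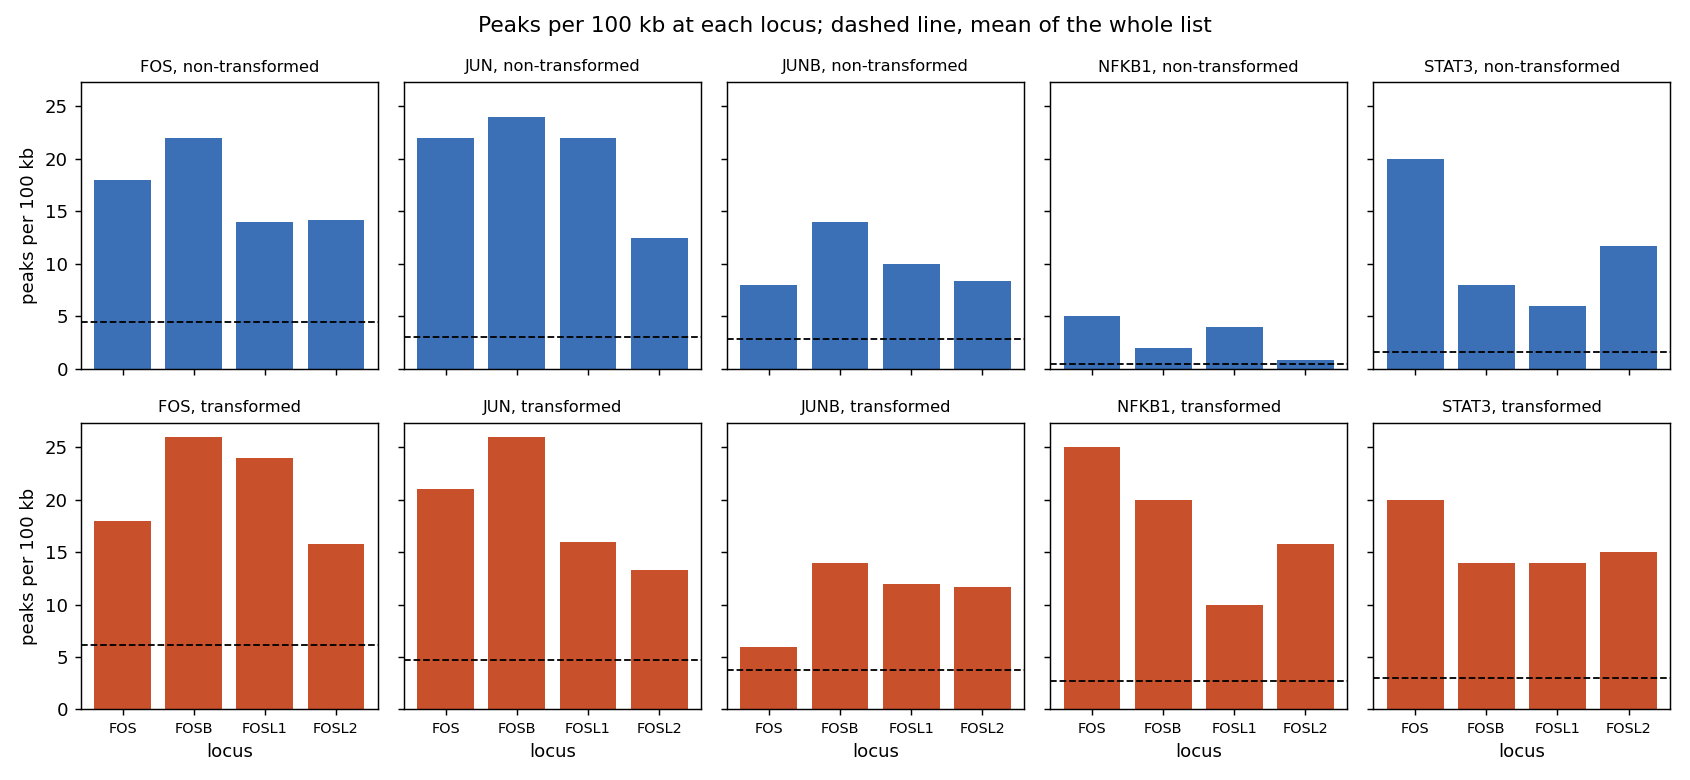
Peaks per 100 kb (y axis) at the FOS, FOSB, FOSL1 and FOSL2 loci (x axis) in each of the 10 lists, blue for non-transformed and red for transformed cells, with the mean of the whole list as a dashed line. All 40 bars stand above their dashed line, by 1.60 to 12.6 times, and STAT3 of non-transformed cells has its tallest bar at the FOS locus with 20.0 peaks per 100 kb.

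Summits of all lists were joined into sites where their windows of 150 bp on each side overlapped, which gave 36 sites at FOS, 16 at FOSB, 18 at FOSL1 and 32 at FOSL2, or 102 of 248897 in the genome. Sites are numbered from left to right within a locus. Binding strength is given as normalised pileup, the number of extended fragments over the summit per 1000000 filtered reads of the library. The libraries held from 4837474 filtered reads for NFKB1 in non-transformed cells to 22082403 for FOS in transformed cells. The smallest listed value was 0.827 in that NFKB1 list and between 0.226 and 0.457 in the other 9, so a weaker NFKB1 site of non-transformed cells could not be listed. Values of a pair are given as non-transformed, then transformed, and a ratio, transformed over non-transformed, is followed by its exact conditional binomial 95% interval, which covers counting error only.

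Of the 102 sites, 28 were in a single list, or 27.5% against 38.7% over the genome, and 3 were in all 10 lists. The latter were FOS-s2, FOS-s10 and FOSL2-s15. In the lists of transformed cells, 16 of 88 sites held all 5 proteins, against a background of 17.4% of sites, and 3 of 79 did so in non-transformed cells, against 3.68%. The share with all 5 was thus near the background in both states. Without the NFKB1 lists, the sites that held the other 4 proteins numbered 13 of 78 in non-transformed cells, or 16.7% against 12.2% over the genome, and 18 of 80 in transformed cells, or 22.5% against 23.8%. By locus, the 16 were 4 of 32 sites in transformed cells at FOS, 3 of 14 at FOSB, 0 of 14 at FOSL1 and 9 of 28 at FOSL2. At a stricter threshold, −log10 q of at least 10, the numbers with all 5 were 2, 1, 0 and 3 in the same order.

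**Figure D2:**
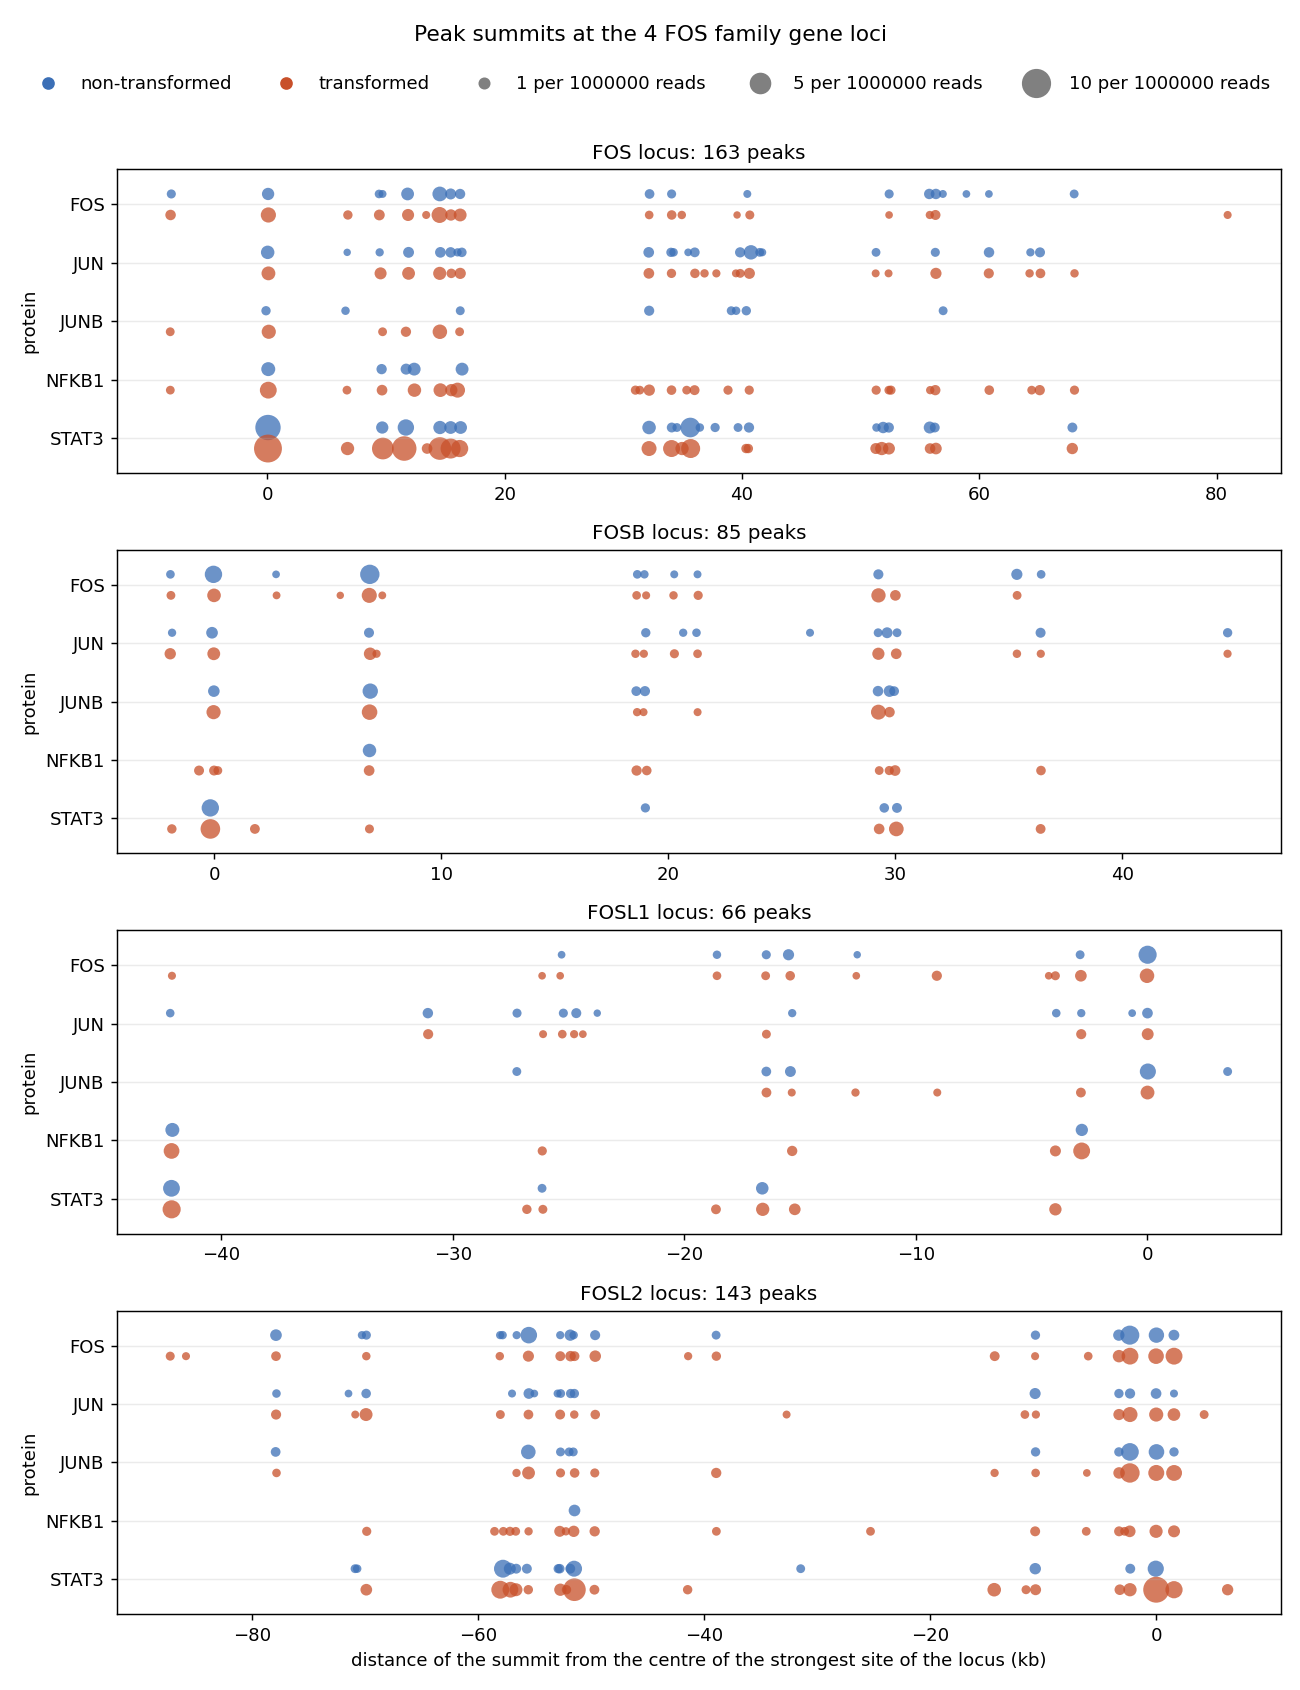
Summits of all 457 peaks in 4 panels, one for each locus, by distance in kb from the centre of its strongest site (x axis) and by precipitated protein (y axis), blue for non-transformed and red for transformed cells, with dot area rising with normalised pileup. The large STAT3 dots of the FOS locus sit at 0 kb, between 9.57 and 16.21 kb and at 34.26 and 35.5 kb, and FOSL2-s26 to FOSL2-s30 lie between -3.26 and 1.58 kb.

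The FOS locus was led by STAT3. Its strongest site, FOS-s2 (chr14:75709299-75709831), was in all 10 lists and its STAT3 normalised pileup was 8.51 in non-transformed and 10.4 in transformed cells. Ranked by −log10 q, the STAT3 peak was in the highest 0.301% and 0.531% of the 2 STAT3 lists. The STAT3 ratio was 1.22 (0.904 to 1.64), so STAT3 was high at this site in both states.

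At the same site the other proteins were weaker. FOS protein had 1.66 and 2.76 in non-transformed and transformed cells, a ratio of 1.66 (1.06 to 2.65). JUN had 2.08 and 2.22, and NFKB1 had 2.27 and 3.51. JUNB stood apart, with 0.763 and 2.35 and a ratio of 3.08 (1.36 to 8.19) that rests on 7 and 37 fragments over summits 232 bp apart, which windows of 50 bp on each side no longer join. In transformed cells the 5 summits lay within 67 bp of each other.

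A cluster of 7 sites, FOS-s4 to FOS-s10, followed between 9.57 and 16.21 kb to the right of FOS-s2. STAT3 was listed in both states at 5 of them, and its ratio was at least 2.01 at each, where 39.1% of common STAT3 sites over the genome were at least 2 times higher and the median ratio was 1.71. Divided by that median, the ratio was 2.18 at FOS-s4, 1.41 at FOS-s5, 1.95 at FOS-s8, 1.64 at FOS-s9 and 1.18 at FOS-s10. FOS-s8 (chr14:75723925-75724295) had STAT3 at 2.01 and 6.69, a ratio of 3.32 (2.01 to 5.69). FOS protein there had 2.58 and 3.12, the highest FOS values of the locus, with a ratio of 1.21 (0.827 to 1.79). JUNB and NFKB1 were listed at FOS-s8 in transformed cells alone, at 2.48 and 2.17. The site thus went from 3 listed proteins to 5, and the 5 summits lay within 68 bp.

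FOS-s5 (chr14:75720946-75721612) had STAT3 at 3.29 and 7.92, a ratio of 2.40 (1.59 to 3.70), over summits 138 bp apart. FOS protein had 1.83 and 1.58 there, a ratio of 0.868 (0.526 to 1.43). STAT3 and the FOS protein therefore had ratios on opposite sides of 1 within this site, although the interval of the latter includes 1. Their genome medians, 1.71 and 0.949, lie on opposite sides of 1 as well. Divided by those medians, the ratios were 1.41 and 0.915. In transformed cells the 4 summits of the site spanned 366 bp with STAT3 leftmost, so the 2 proteins may lie at separate positions. FOS-s10 (chr14:75725437-75726121) was in all 10 lists, with STAT3 at 1.83 and 3.68 and NFKB1 at 1.86 and 2.69 over summits 384 bp apart. Its JUNB values, 0.654 and 0.635, were below the medians of the JUNB lists, 1.09 and 0.952.

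FOS-s4 (chr14:75718824-75719445), the fifth in summed pileup, had the second largest STAT3 ratio of the locus, 3.72 (2.15 to 6.74), from 1.65 and 6.13. JUN there had 0.505 and 1.57, a ratio of 3.11 (1.39 to 7.88), the only JUN ratio of at least 2 at this locus. FOS-s6, between them, carried NFKB1 alone, at 1.86 and 2.07 in the 2 states. No peak of any list lay in the next 14.6 kb, from 75725971 to 75740580.

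Over the whole locus, JUN was listed without the FOS protein at 8 of its 19 sites in non-transformed cells, or 42.1% against 30.9% over the genome, and at 8 of 20 in transformed cells, or 40% against 21.5%. To the right of that gap, FOS-s16 (chr14:75744747-75745386) was almost a STAT3 site alone, at 4.94 and 4.57, a ratio of 0.925 (0.601 to 1.41). Beside it stood only JUN of non-transformed cells at 0.378 and NFKB1 of transformed cells at 0.620. The neighbour FOS-s14 had STAT3 at 0.915 and 3.57, a ratio of 3.90 (1.87 to 8.89) that was the largest for STAT3 at any of the 4 loci. STAT3 thus had a like value in both states at one site and a higher value in transformed cells at another less than 2 kb away.

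FOS-s23 (chr14:75749749-75750467) carried the strongest JUN peak of non-transformed cells at the locus, 2.46 against 1.25 in transformed cells, a ratio of 0.507 (0.289 to 0.870). FOS-s30 (chr14:75766337-75766660) was listed by the FOS protein and JUNB, at 0.430 and 0.654, in non-transformed cells and by nothing in transformed cells. Both values were weak, below their list medians of 0.859 and 1.09. JUNB peaks per 100 kb were 2.87 and 1.60 times their list means over the whole locus, but the JUNB share of its sites was low. JUNB was listed at 8 of 30 sites in non-transformed and 6 of 32 in transformed cells, or 26.7% and 18.8%. Over the 4 loci together the shares were 32.9% and 35.2%, and over the genome 45.2% and 46.7%.

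The FOSB locus had 3 sites well above the rest, and the FOS protein was stronger in non-transformed cells at a pair of them. FOSB-s3 (chr19:45951994-45952627) had FOS protein at 3.76 and 2.13, a ratio of 0.566 (0.383 to 0.831). At FOSB-s7 (chr19:45958983-45959868) the FOS protein had 4.78 and 2.72, a ratio of 0.568 (0.403 to 0.797), and the former is the highest FOS value of all 4 loci. Neither ratio passed 2-fold, and both intervals lie below 1 and below the median FOS ratio over the genome, 0.949.

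The partners did not share that order. JUN at FOSB-s3 had 1.45 and 1.84, and at FOSB-s7 it had 0.946 and 1.73. JUNB had 1.42 and 2.35 at FOSB-s3, and 2.83 and 2.92 at FOSB-s7. Each of these 4 ratios was above 1, from 1.03 for JUNB at FOSB-s7 to 1.83 for JUN there, and all 4 intervals include 1. The genome medians were 1.29 for JUN and 0.964 for JUNB, and the JUN ratio at FOSB-s3, 1.27, was just below its median. STAT3 was strong at FOSB-s3, with 3.75 and 4.91, and at FOSB-s7 it was listed in transformed cells alone at 0.669, below the list median of 1.23.

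FOSB-s13 (chr19:45981400-45982539) went the other way for the FOS protein. It had 0.967 and 2.40, a ratio of 2.48 (1.43 to 4.50). STAT3 had 0.915 and 2.56, a ratio of 2.80 (1.28 to 6.60), and JUNB had 1.42 and 2.67, a ratio of 1.88 (0.991 to 3.82) over summits 487 bp apart. NFKB1 was listed in transformed cells alone at 1.14. The site spans 1140 bp and its summits spread over 839 bp, so several neighbouring binding positions may be joined in it. FOSB-s8 (chr19:45970719-45971516), the fourth in rank, had values from 0.508 to 1.03, most of them below the medians of their lists. JUN of non-transformed cells, at 0.757 against a median of 0.694, and NFKB1 of transformed cells, at 1.03 against 0.93, were above. FOSB-s8 lay at the right end of an 11.2 kb stretch without a peak, from 45959718 to 45970869.

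The FOSL1 locus had no site with all 5 proteins, among 16 sites in non-transformed and 14 in transformed cells. Over the genome, 3.68% and 17.4% of sites had all 5. The strongest site of the locus was bound by AP-1 members alone. FOSL1-s17 (chr11:65683175-65683512) had FOS protein at 4.14 and 2.49, a ratio of 0.602 (0.418 to 0.862). JUNB had 3.16 and 2.22, a ratio of 0.703 (0.418 to 1.19), and JUN had 1.14 and 1.52, a ratio of 1.34 (0.714 to 2.57). Neither NFKB1 nor STAT3 was listed there in any state, and all 6 summits lay within 37 bp.

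The other end of the locus showed the reverse composition. FOSL1-s1 (chr11:65640991-65641383), at -42.16 kb from that one, had STAT3 at 3.48 and 4.13 and NFKB1 at 2.27 and 3.0. AP-1 members were below the medians of their lists there, with JUN at 0.568 in non-transformed cells against a median of 0.694 and the FOS protein at 0.453 in transformed cells against 0.725. Between the ends, FOSL1-s15 (chr11:65680287-65680660) carried NFKB1 at 1.65 and 3.51, a ratio of 2.13 (0.966 to 5.31). The FOS protein at FOSL1-s15 had 0.644 and 1.45, a ratio of 2.25 (1.13 to 4.79), and JUN had 0.505 and 0.975. STAT3 was not listed at that site.

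FOSL1-s10 (chr11:65666559-65667040) held 3 proteins in both states at like values. STAT3 had 1.74 and 2.01, JUNB had 0.872 and 0.889, and the FOS protein had 0.698 and 0.634. JUN was listed there in transformed cells alone, at 0.650, so the site had 3 listed proteins in non-transformed and 4 in transformed cells. FOSL1-s3 (chr11:65655959-65656268) was listed by JUN and JUNB, at 0.694 and 0.654, in non-transformed cells and by nothing in transformed cells. The JUN value equals its list median, and the JUNB value is below its own, 1.09. JUN was the most frequent protein of the locus in non-transformed cells, at 11 of 16 sites, or 68.8% against 48.5% over the genome. Over the 4 loci together the JUN share was 67.1%. Of the 11 sites, 7 lacked the FOS protein, or 63.6% against 39.6% over the 4 loci and 30.9% over the genome. JUN at these 7 ran from 0.315, the smallest value of its list, to 1.07, against a list median of 0.694.

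The FOSL2 locus held 9 of the 16 sites with all 5 proteins in transformed cells. They were 9 of its 28 sites in that state, against 17.4% over the genome. Of these, FOSL2-s26, FOSL2-s28, FOSL2-s29 and FOSL2-s30 have their centres within 5 kb. FOSL2-s29 (chr2:28671087-28671450) had the highest sum, led by STAT3 at 3.20 and 8.92, a ratio of 2.79 (1.85 to 4.27). The FOS protein had 2.85 and 2.94 there and JUNB had 2.94 and 3.11. JUN had 1.14 and 2.33, a ratio of 2.05 (1.16 to 3.78). STAT3 and JUN were thus higher in transformed cells where FOS and JUNB were level. The genome medians also differ in that direction, 1.71 for STAT3 and 1.29 for JUN against 0.949 for FOS and 0.964 for JUNB. Divided by its median, the ratio was 1.63 for STAT3, 1.59 for JUN, 1.09 for FOS and 1.10 for JUNB. The STAT3 interval lies above its genome median, and the JUN interval includes its own.

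FOSL2-s28 (chr2:28668782-28669131) was led by JUNB and the FOS protein. JUNB had 3.92 and 4.83, the highest JUNB values of the 4 loci, with a ratio of 1.23 (0.817 to 1.88). The FOS protein had 4.62 and 3.49, a ratio of 0.755 (0.548 to 1.04), while JUN had 1.01 and 2.71, a ratio of 2.68 (1.5 to 5.05). STAT3 had 0.915 and 2.01, and NFKB1 was listed in transformed cells alone at 1.45.

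FOSL2-s30 (chr2:28672695-28673010) had the largest ratios of the 4 loci for the FOS protein, JUN and JUNB. The FOS protein had 1.18 and 3.53, a ratio of 2.99 (1.84 to 5.04). JUN had 0.442 and 1.79, a ratio of 4.05 (1.76 to 10.8), and JUNB had 0.763 and 3.05, a ratio of 4.00 (1.80 to 10.5). STAT3 at 3.68 and NFKB1 at 1.55 were listed in transformed cells alone. All 8 summits lay within 15 bp. It was the only one of the 16 sites of the 4 loci listed by FOS, JUN and JUNB in both states at which all 3 were at least 2 times higher in transformed cells. Over the genome 362 of 37167 such sites, or 0.974%, had that pattern, a count looked up after the values of this site had been seen. By listed proteins FOSL2-s16 differed more, with the FOS protein alone in non-transformed cells, at 0.967, and all 5 proteins in transformed cells, at 0.698 to 1.40.

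The left part of the FOSL2 locus held the third strongest site, FOSL2-s15 (chr2:28618885-28619960), which was in all 10 lists. STAT3 had 3.11 and 6.69 there, a ratio of 2.15 (1.39 to 3.38), and NFKB1 had 1.45 and 1.34. The FOS protein had 1.34 and 1.09, and JUNB had 0.654 and 0.825 over summits 488 bp apart. FOSL2-s15 spans 1076 bp and its summits spread over 775 bp, so several neighbouring binding positions may be joined in it. FOSL2-s12 (chr2:28615432-28615908), the fifth in rank, had the lowest FOS ratio of the 4 loci. The FOS protein had 3.38, its second highest value of non-transformed cells at this locus, and 1.27, a ratio of 0.375 (0.231 to 0.594), while JUNB had 2.51 and 1.84 and JUN had 1.14 and 0.867. FOSL2-s9, a STAT3 site, had 4.03 and 4.01, a ratio of 0.997 (0.624 to 1.59), over summits 238 bp apart.

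**Figure D3:**
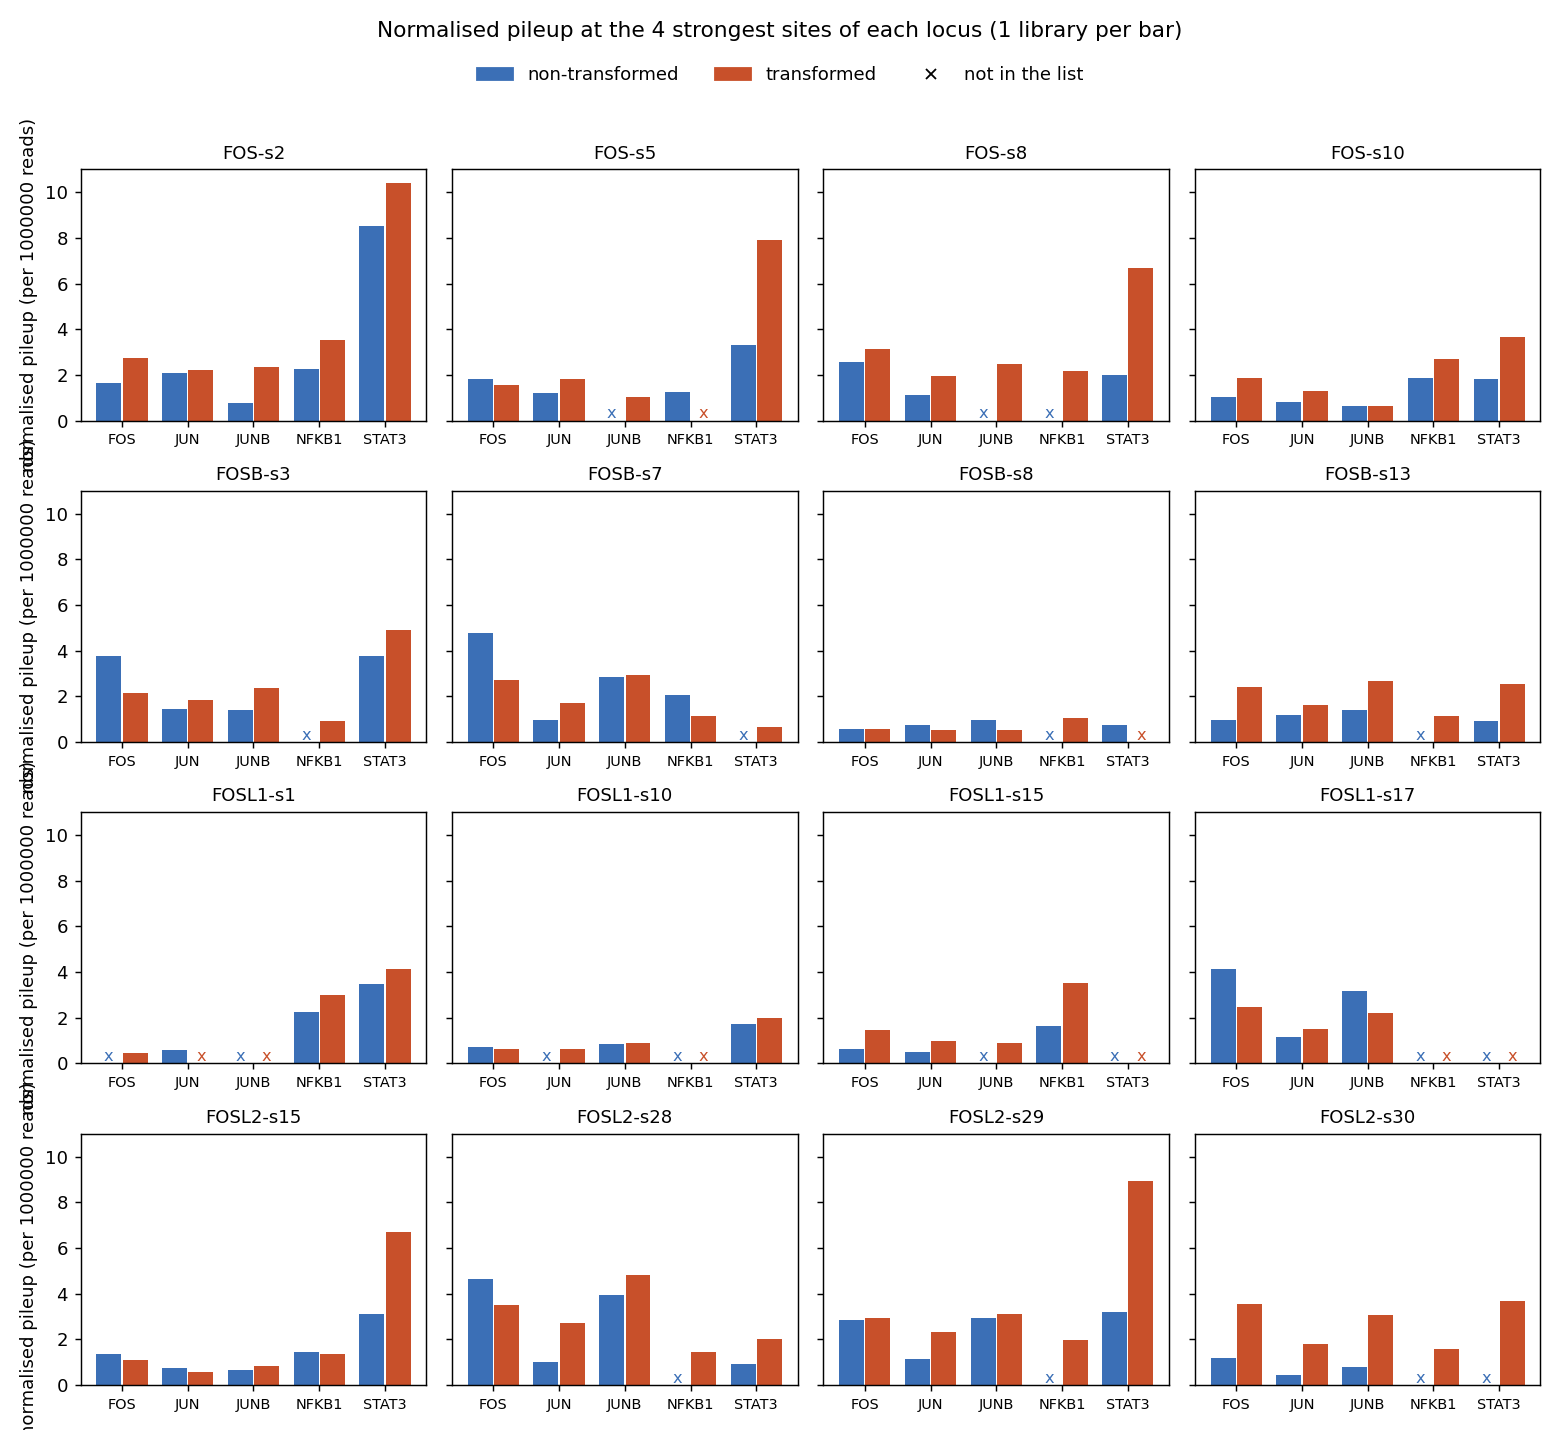
Normalised pileup, per 1000000 filtered reads (y axis, from 0), of the 5 proteins (x axis) at the 4 strongest sites of each locus, blue for non-transformed and red for transformed cells, with an x where the list has no peak and 1 library per bar. STAT3 reaches 10.4 at FOS-s2 and 8.92 at FOSL2-s29, FOSL1-s17 has no bar for NFKB1 or STAT3, and all bars of FOSL2-s30 are red or have a taller red partner.

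Over the 4 loci together, each protein's lists of the 2 states were compared by which sites they held. NFKB1 was listed in transformed cells only at 45 of 54 sites, against a background of 82.0%, and in non-transformed cells only at 1, against 1.79%. Those shares are near the background. The NFKB1 libraries differ in depth, 4837474 and 9674390 filtered reads, and the part of depth in the difference was not tested. Among the 8 NFKB1 sites of transformed cells with at least 1.65, 2 times the smallest value the shallower list holds, 3 were in transformed cells only, or 37.5% against 47.9% over the genome.

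STAT3 was in transformed cells only at 19 of 55 sites (background 53.0%) and in non-transformed cells only at 6 (background 13.2%). JUN was in transformed cells only at 14 of 67 sites (background 43.2%) and in non-transformed cells only at another 14 (background 11.6%). The FOS protein was in transformed cells only at 15 of 64 (background 34.5%) and in non-transformed cells only at 7 (background 10.7%). JUNB was in transformed cells only at 13 of 39 (background 37.3%) and in non-transformed cells only at 8 (background 15.8%). For FOS, JUN and STAT3 the share of sites listed in transformed cells only was thus below the background. For JUN the equal numbers of the 2 states hold for weak peaks, since at a stricter threshold, −log10 q of at least 10, JUN was in transformed cells only at 12 sites and in non-transformed cells only at 4.

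The sites of transformed cells with at least 2 times the higher of the smallest values of a protein's lists gave a like order. By that count JUN was in transformed cells only at 5 of 34 sites, or 14.7% against 30.7% over the genome, and STAT3 at 10 of 37, or 27.0% against 49.8%. For the FOS protein it was 7 of 43, or 16.3% against 22.9%, and for JUNB 4 of 15, or 26.7% against 21.7%. JUNB was therefore on the other side of its background by this count. In non-transformed cells only, the same minimum left JUN at 2 of 34 sites, or 5.88% against 7.17%, so the JUN share was above its background over all peaks and below it here. The FOS protein was left at 2 of 37, or 5.41% against 8.44%, JUNB at 1 of 12, or 8.33% against 9.43%, and NFKB1 and STAT3 at none, against 3.38% and 11.1%.

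**Figure D4:**
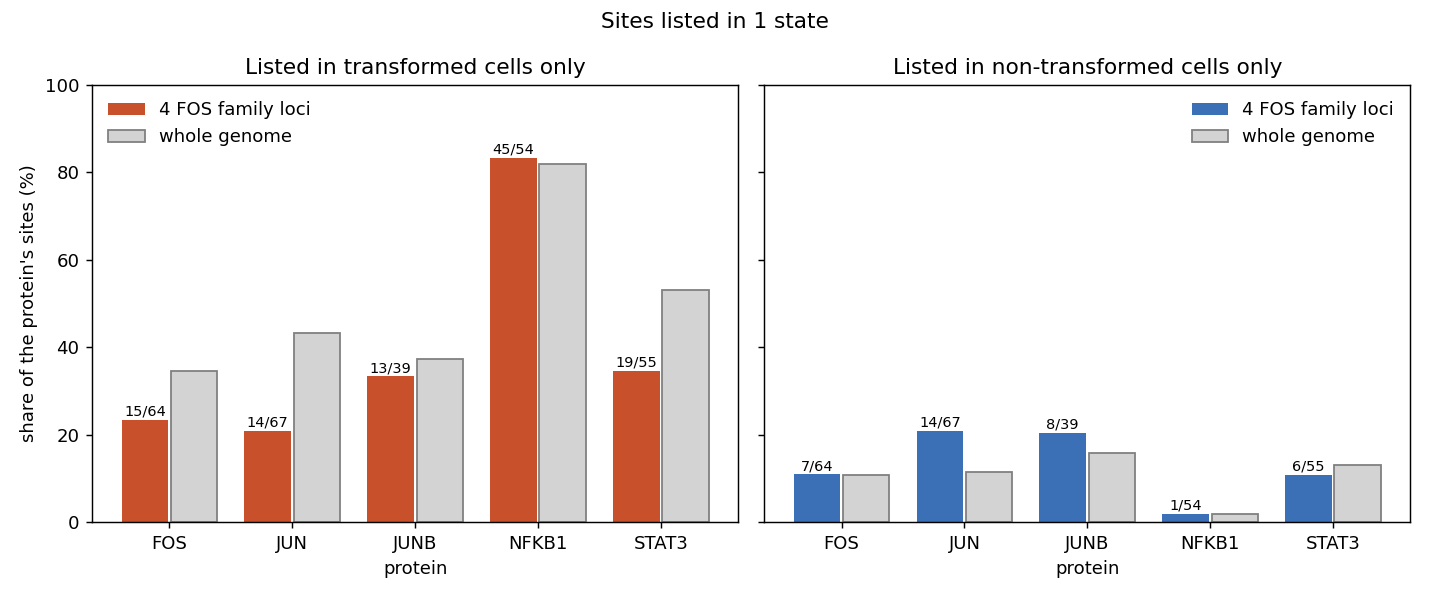
Share in percent (y axis) of each protein's sites (x axis) that were listed in transformed cells only (left) or in non-transformed cells only (right), coloured for the 4 FOS family loci with the counts above and grey for the whole genome. On the left, NFKB1 stands near 80% for the loci and for the genome, and JUN is at 14 of 67 against 43.2%. On the right, JUN is at 14 of 67 against 11.6%.

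Where a protein was listed in both states, its pileups were summed over the sites and compared, and the median of the single-site ratios is the value that stands beside the genome median. STAT3 was higher in transformed cells, with a ratio of 1.70 (1.53 to 1.87) over 30 sites. Its median site ratio was 1.57, with 14 of 30 sites above the genome median of 1.71. It was at least 2 times higher at 13 of the 30 (background 39.1%) and at least 2 times lower at none (background 0.978%). The share past 2-fold was near the background. By locus the STAT3 ratio was 1.75 (1.53 to 2.0) at FOS, 1.80 (1.48 to 2.18) at FOSL2, 1.60 (1.10 to 2.35) at FOSB and 1.16 (0.804 to 1.68) at FOSL1. The FOSL1 interval, for a sum over 3 sites, lies below the genome median of single-site ratios, and the median site ratio there was 1.15. That sum leaves out the 4 FOSL1 sites at which STAT3 was listed in transformed cells only.

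JUN had a ratio of 1.23 (1.11 to 1.37) over 39 sites. Its median site ratio was 1.07, with 17 of 39 sites above the genome median of 1.29. It was at least 2 times higher at 6 (background 14.8%) and at least 2 times lower at 1 (background 0.807%). FOSL2 stood out among the loci with 1.62 (1.31 to 2.01), and the ratio was 1.09 (0.926 to 1.28) at FOS, 1.22 (0.95 to 1.56) at FOSB and 1.05 (0.752 to 1.46) at FOSL1. Of the 6 JUN sites past 2-fold, 4 were at FOSL2.

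The FOS protein had a ratio of 0.963 (0.885 to 1.05) over 42 sites. Its median site ratio was 1.05, with 25 of 42 sites above the genome median of 0.949. It was at least 2 times higher at 3 (background 8.54%) and at least 2 times lower at 3 (background 5.99%). By locus the ratio was 1.17 (0.994 to 1.37) at FOS, 0.816 (0.680 to 0.979) at FOSB, 0.838 (0.663 to 1.06) at FOSL1 and 0.964 (0.838 to 1.11) at FOSL2. The level sum at FOSL2 hides opposite sites, from 0.375 at FOSL2-s12 to 2.99 at FOSL2-s30. At FOSB the sum was carried by FOSB-s3 and FOSB-s7, while the median site ratio was 1.07 and 6 of 9 sites were above the genome median.

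JUNB had a ratio of 1.17 (1.01 to 1.37) over 18 sites. Its median site ratio was 1.04, with 12 of 18 sites above the genome median of 0.964. It was at least 2 times higher at 2 (background 7.74%), FOS-s2 and FOSL2-s30, and at least 2 times lower at 1 (background 7.02%), FOSL1-s11. NFKB1 had a ratio of 1.27 (0.959 to 1.70) over 8 sites. Its median site ratio was 1.21, with 6 of 8 sites above the genome median of 1.03, and by the deposited fold enrichment in place of the normalised pileup its ratio was 1.99. It was at least 2 times higher at 1 (background 9.26%), FOSL1-s15, and at least 2 times lower at none (background 5.92%).

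**Figure D5:**
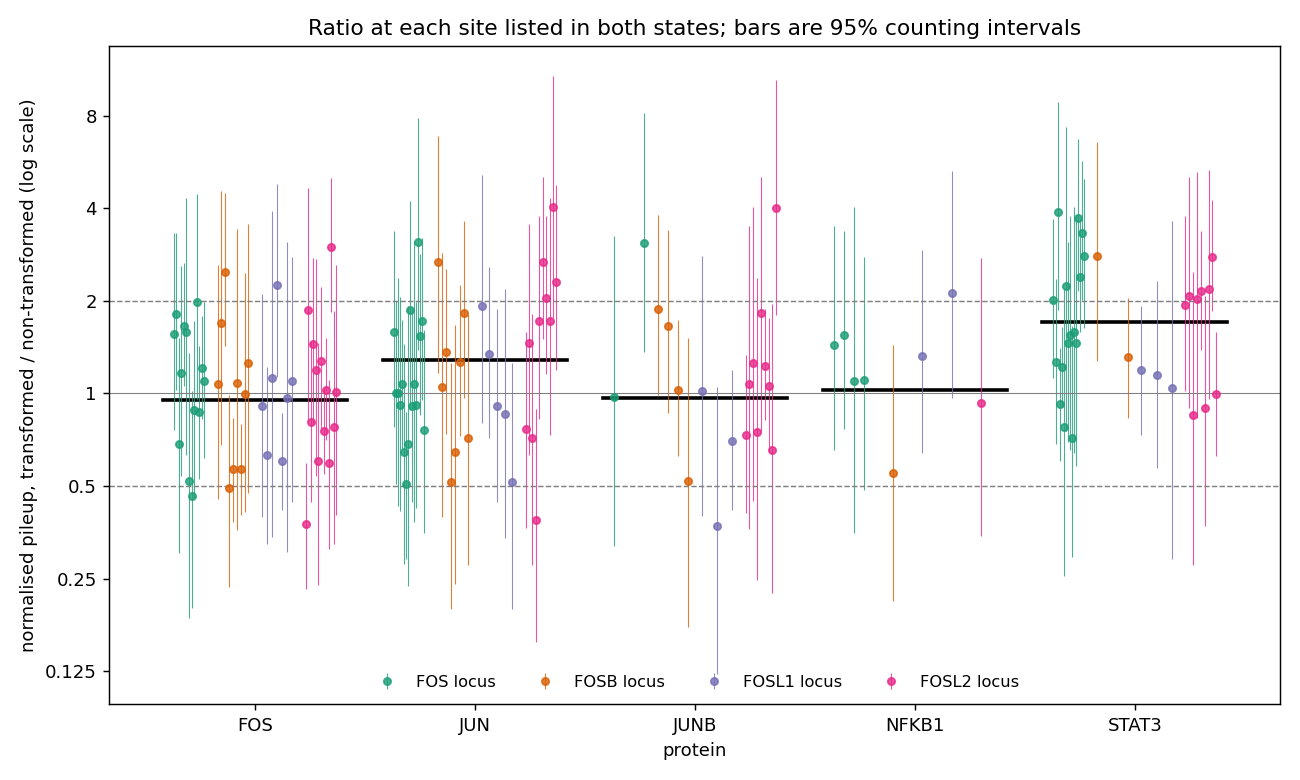
Ratio of normalised pileup, transformed over non-transformed (y axis, log scale), at each site listed in both states, by protein (x axis) and coloured by locus, with 95% counting intervals as bars, the genome median as a black line and 2-fold as dashed lines. The STAT3 points have a median of 1.57 under their genome line at 1.71, and those of the FOS protein run from 0.375 to 2.99 with a median of 1.05 over their line at 0.949.

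The distance between summits within a site is bounded by how sites were joined. At the 16 sites with all 5 proteins in transformed cells the 5 summits spanned a median of 69 bp, from 14 to 790 bp, and the largest span belongs to one of the FOSB sites. Over the genome the median was 57 bp at 36787 such sites. The median was 69 bp over the 9 FOSL2 sites and 148.5 bp over the 4 FOS sites. Between the states, the summit of a protein lay apart by a median of 24.5 bp for FOS. The median was 43 bp where JUN was bound, 19.5 bp in the case of JUNB, 17 bp with NFKB1 and 31 bp with STAT3, and single sites reached 488 bp. Spans under the fragment length of the libraries, 114 to 150 bp, do not resolve separate binding positions.

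The limits of the loci were those given above. At the left limit of FOSB, the nearest summit inside lay 0.38 kb from the limit and the nearest outside 0.18 kb. At the other limits the nearest summit inside lay 1.14 to 14.02 kb away and the nearest outside 0.52 to 19.01 kb.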

How the data were processed

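The data were 10 lists of ChIP-seq peaks, 1 library per protein and state. The submitters' processing notes name Bowtie and MACS2 and the hg19 build; the version of Bowtie was not given in the sources used here. Per the file headers, peaks were called per library with MACS 2.0.10.20131216, without a control library, at a q-value of 0.05 and with 1 read kept per position. The deposited values used were the pileup at the summit (a signal in fragments, not scaled for depth), the fold enrichment over local background (a ratio), the −log10 p and q-values, and the positions. Without a control, regions with high background can be listed as peaks.

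Pileups were scaled to 1000000 filtered reads, as counted in the file headers (normalised pileup). Summits within overlapping windows of 150 bp on each side formed a site, and the highest peak of each list stood for it. Ratios carry exact conditional binomial (Clopper-Pearson) 95% intervals. The site joining and intervals were tested on simulated data. The simulated sites lay too far apart for neighbours to be joined, so the joining of close neighbours was not tested. Named sites were the 4 with the largest summed normalised pileup at each locus and those listed by at least 2 proteins in non-transformed and none in transformed cells. FOS-s4, FOS-s6, FOS-s9, FOS-s14, FOS-s16, FOS-s23, FOSL1-s11, FOSL2-s9, FOSL2-s12, FOSL2-s16 and FOSL2-s26 were added after their values were seen. The loci, lists and rules were chosen with earlier results of these data known. With 1 library per group no test was run. Peaks were not placed on gene starts, exons or introns, since the reference annotation used here was GRCh38 and the lists were hg19. The paper given with the data describes other libraries in its methods. Python 3.11.15, numpy 2.4.6, pandas 2.3.3, scipy 1.17.1 and matplotlib 3.10.9 were used.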

Additional observations from a re-analysis of the deposited data

How the results depend on the processing

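With a −log10 q of at least 10, the peaks numbered 75 at FOS, 33 at FOSB, 29 at FOSL1 and 63 at FOSL2, and the sites 22, 8, 9 and 17. Sites with all 5 proteins then numbered 0 in non-transformed and 6 in transformed cells. Sites in non-transformed cells only became 2 (FOS), 4 (JUN), 1 (JUNB), 0 (NFKB1) and 2 (STAT3), NFKB1 sites in transformed cells only became 13, and the summed JUNB ratio was 1.01. Widening the loci by 25 kb on each side gave 137 peaks at FOSB. Windows of 50 bp on each side left 1 site with all 5 proteins in non-transformed cells and gave 2 NFKB1 and 15 STAT3 sites in non-transformed cells only, and the JUNB ratio at the FOS locus, 2.11 over FOS-s2 and FOS-s10, reversed to 0.971, since the 2 summits at FOS-s2 were no longer joined. Whole peaks gave 0 NFKB1 sites in non-transformed cells only. By fold enrichment, the summed ratio was 1.53 for JUNB, 1.99 for NFKB1 and 1.49 for STAT3. Divided by the genome median, it was 0.956 for JUN and 0.994 for STAT3. Apart from that construction, the cause of these changes was not tested.

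Chosen after seeing the data, leaving out NFKB1 gave 13 sites with the other 4 proteins in non-transformed cells. Also added then, a minimum of 2 times the higher list minimum left sites in transformed cells only at 7 (FOS), 5 (JUN), 4 (JUNB), 3 (NFKB1) and 10 (STAT3), and in non-transformed cells only at 2, 2, 1, 0 and 0 in the same order. Of 89 values under an alternative, 51 stayed within 1.5 times their count or within their counting interval. Of 30 site ratios past 2-fold, none reversed in 87 alternatives and 23 of these were no longer past 2-fold. Only the fold enrichment could have reversed one. Windows of 50 bp compared the same peaks and gave the same ratio, and genome medians of 0.949 to 1.71 are too near 1. Those windows gave no value for JUNB at FOS-s2 or for STAT3 at FOS-s5 and FOSB-s13, which are not among the 87. At this depth, 109 of 137 single-site ratios had the genome median of their protein within their counting interval. No paired analysis was possible because there was 1 library per protein and state, and no replicate could be left out.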
